A study of Arabidopsis thaliana with 4 samples.

Results

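EMB2786 (AT3G17300) was the 1 gene with an EMB number as its symbol that the annotation used here assigned to a probe set of these arrays. Genes were selected by symbol: a probe set had to represent a single gene whose symbol in the annotation is EMB followed by digits. The RefSeq gene table held 160 such symbols, and EMB2786 was the 1 with such a probe set. It was 1 of 13356 genes named from the 13513 single-gene probe sets, out of 22746 probe sets in all; the other 159 EMB genes were not analysed here, and the values below do not describe them. The arrays were Affymetrix ATH1, a short-oligonucleotide array of the Arabidopsis genome, hybridised with RNA from the aerial parts of seedlings harvested 2 weeks after germination. There were 2 arrays from aln-1, which carries a mutant allele of ALN, the gene of allantoinase, in a Col-0 background, and 2 from wild type Col-0, each labelled as a separate biological replicate. Seedlings of both genotypes were raised aseptically on solid MS-based medium with 1% sucrose at 22 degrees C and 16 h of light, and no agent was applied. The labels name a single mutant allele, so a difference between the genotypes cannot be told apart from one carried by that line for another reason.

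Embryo-defective genes are named for mutants whose homozygous seeds stop developing at the embryo stage, found by inspecting the siliques of heterozygous plants. Many known members act in plastid gene expression, protein synthesis, RNA processing and other basic cell functions that growing leaves also need. Allantoinase hydrolyses allantoin, an intermediate of purine breakdown, and its loss makes allantoin accumulate. The series set aln-1 against Col-0 with abscisic acid metabolism and stress tolerance in view. No source used here states what the EMB2786 protein does. In the RefSeq table the gene lies on chromosome 3 between the pseudogene AT3G17290 and DRM3, a gene of the domains rearranged methyltransferase family, and has 3 annotated transcripts.

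EMB2786 transcript signal did not separate aln-1 from wild type. On the log2 scale, relative to the median of its 4 arrays, the signal was 0.051 and -0.051 in the aln-1 replicates 1 and 2, against 0.15 and -0.20 in the Col-0 replicates 1 and 2. Both aln-1 arrays lay between the Col-0 arrays, so the genotypes overlapped. The mean was 0 ± 0.072 in aln-1 and -0.022 ± 0.25 in Col-0 (SD, n = 2 each). The aln-1 mean is 0 by construction, because its arrays are the middle pair on which this probe set was centred. The Col-0 arrays were 1.27-fold apart and the aln-1 arrays 1.07-fold apart, against 1.02-fold between the genotype means.

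**Figure D1:**
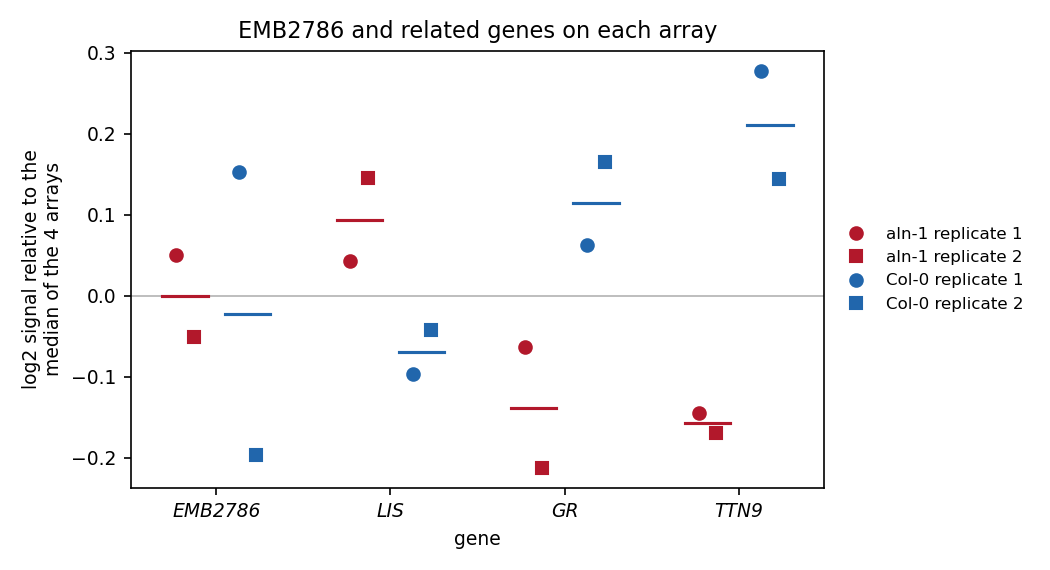
Log2 signal of EMB2786, LIS, GR and TTN9 on each array, relative to the median of the 4 arrays; points are arrays, bars the means of 2 arrays, aln-1 left of Col-0 for each gene. For EMB2786 the aln-1 arrays, at 0.051 and -0.051, sit between the Col-0 arrays, at 0.15 and -0.20.

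The difference in EMB2786 signal, aln-1 minus Col-0, was 0.022 (SE 0.19) on the log2 scale, or 1.02-fold. Tested with limma across all probe sets, it had an adjusted p of 0.956 and an unadjusted p of 0.914. The 95% confidence interval of the difference ran from -0.55 to 0.59, or from 0.683-fold to 1.51-fold, so a 2-fold difference in either direction lay outside it. That no longer held without aln-1 replicate 1, where the interval reached -1.04, or without aln-1 replicate 2, where it reached 1.08. Of the EMB symbols 0 of 1 passed the adjusted threshold of 0.05, where limma called 0.255% of the 22746 probe sets. Likewise 0 of 1 had genotypes that did not overlap, against 60.1% of all probe sets, and 0 of 1 had an unadjusted limma p under 0.05, against 23.4%. A single member gives no share to set against these percentages. In this fit, with 1 variance prior for all probe sets, the smallest limma t statistic among the 58 called probe sets corresponds, at the SE of EMB2786, to a log2 difference of 3.89, or 14.9-fold. That size was computed for this fit only, and the number of calls changed with the setting. The same arrays gave 596 calls with priors fitted within brightness classes, read from the rounding step of the deposited values. They gave 241 without the dim class and 0 with a robust prior, and EMB2786 passed in none of these. The sign of the difference depended on single arrays. It was -0.15 without Col-0 replicate 2 and -0.029 without aln-1 replicate 1, against 0.20 without Col-0 replicate 1 and 0.073 without aln-1 replicate 2. With either Col-0 array left out the genotypes no longer overlapped, in opposite directions, because 1 wild type array then remained. The limma adjusted p lay between 0.684 and 0.954 in these 4 fits, and in none of them did EMB2786 pass.

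**Figure D2:**
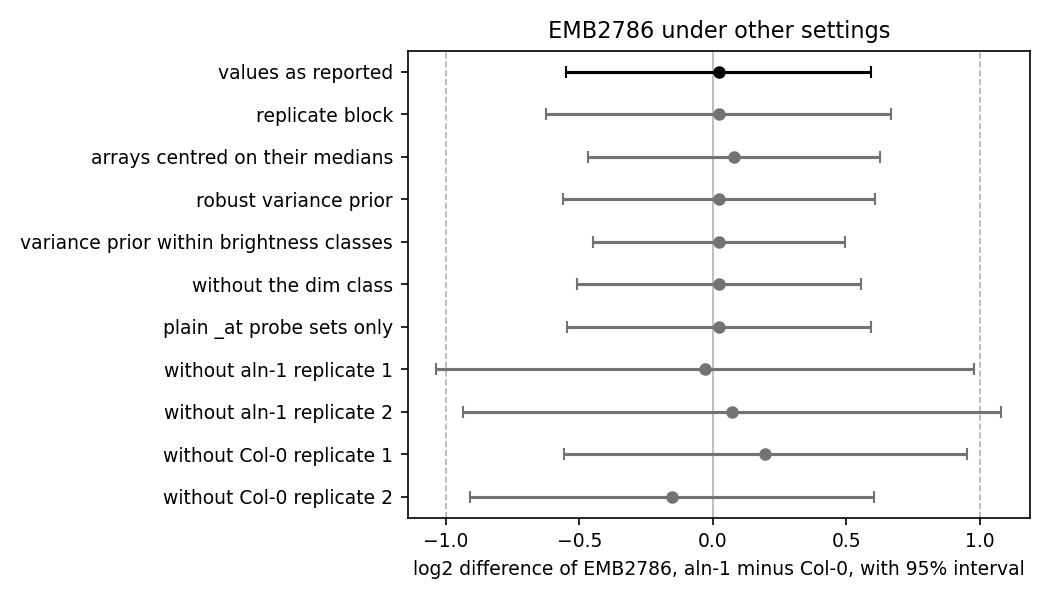
Log2 difference of EMB2786, aln-1 minus Col-0, on the x axis, with its 95% confidence interval from limma, as reported and under 10 other settings; dashed lines mark 2-fold. All intervals span 0, and the estimate falls below 0 without aln-1 replicate 1 (-0.029) and without Col-0 replicate 2 (-0.15).

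Among all probe sets EMB2786 had one of the smaller differences and a pooled spread near the median of its brightness class. Of the 22746 probe sets, 96.6% had a larger absolute log2 difference than EMB2786, and the median absolute difference was 0.42. The signed median over all probe sets was -0.076, slightly below 0. By that rounding step EMB2786 belongs to a bright class of 12931 probe sets, whose step corresponds to signals of at least 256. In that class 96.0% of the probe sets had a larger absolute difference. Both ranks rest on an EMB2786 estimate of 0.022 with an SE of 0.19. They were not computed under the other settings, and they do not measure how stable its signal is. Its pooled SD within genotypes was 0.18, against a class median of 0.16. Its spread differed by genotype: the SD of the aln-1 arrays was larger than that of 27.7% of the class, and the SD of the Col-0 arrays larger than that of 80.4%. With 2 arrays in each genotype these SDs are themselves imprecise, and their difference was not tested. The placement of both aln-1 arrays between the Col-0 arrays was shared by 1814 probe sets, or 7.98%, and the exact order of the arrays by 491, or 2.16%. No gene is named for a pattern like that of EMB2786, because 4 centred values do not set one apart from these.

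**Figure D3:**
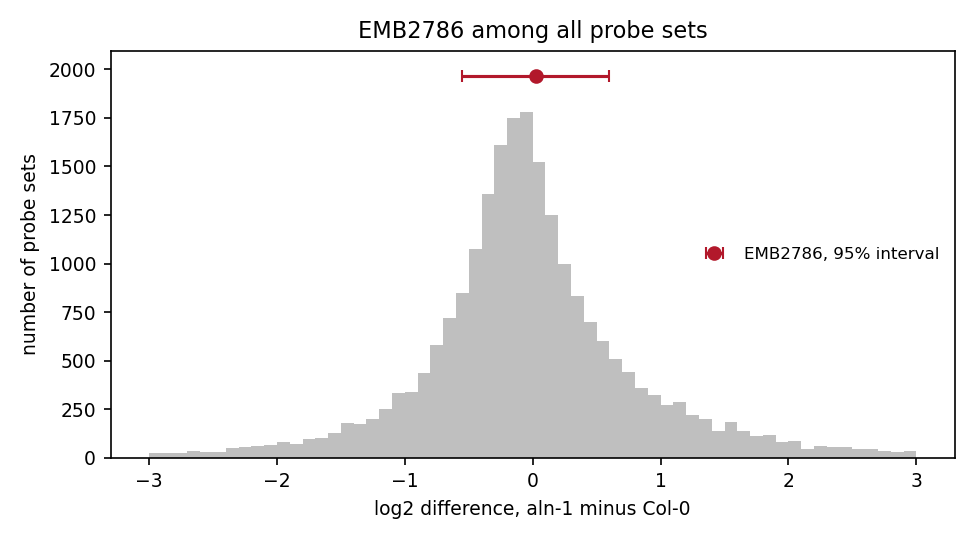
Histogram of the log2 difference, aln-1 minus Col-0, over all probe sets in bins of 0.1, with the EMB2786 difference (0.022) and its 95% confidence interval (-0.55 to 0.59) drawn above it. EMB2786 lies near the centre of the distribution; 440 probe sets beyond -3 or 3 are not drawn.

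Both genes that carry an EMB number only as a synonym, and so fall just outside the symbol rule, had small differences of opposite sign. LIS (LACHESIS, also EMB2776), a homologue of a yeast splicing factor with a role in gamete cell fate, had 0.043 and 0.15 in the aln-1 arrays against -0.096 and -0.043 in the Col-0 arrays. The LIS difference was 0.16 (SE 0.14), with a 95% confidence interval from -0.24 to 0.57. GR (also EMB2360), a glutathione reductase that keeps the antioxidant glutathione in its reduced form, had -0.063 and -0.21 in the aln-1 arrays against 0.063 and 0.17 in the Col-0 arrays. The GR difference was -0.25 (SE 0.15), with a 95% confidence interval from -0.69 to 0.19. For both genes the genotypes did not overlap, higher in aln-1 for LIS and lower for GR, as in 60.1% of all probe sets in either direction, and neither passed in limma (adjusted p 0.512 for LIS and 0.377 for GR). No test between genes was made.

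Other genes named for seed or embryo sac mutants were hardly covered by the annotation used here. Of 6 TITAN (TTN) genes, named for mutants with giant endosperm nuclei, 1 had a named probe set. TTN9 had -0.14 and -0.17 in the aln-1 arrays against 0.28 and 0.14 in the Col-0 arrays, without overlap. Genotypes did not overlap in 60.1% of all probe sets, in either direction. The TTN9 difference was -0.37 (SE 0.14), with a 95% confidence interval from -0.78 to 0.046 and a limma adjusted p of 0.240. None of the 27 EDA, 45 MEE, 6 OVA and 14 PDE symbols had a named probe set, nor did any of the 8 listed genes of plastid import and chaperones, and these were not analysed here.

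The mutated gene and the tissue markers give the setting of these values. ALN signal was -1.59 and -1.72 in the aln-1 arrays against 1.59 and 2.03 in the Col-0 arrays, a log2 difference of -3.46 (SE 0.22) with a limma adjusted p of 0.0580. Whether the ALN probes lie outside the altered part of the gene is not stated in the labels. Of 7 root markers 3 had a named probe set, with log2 differences from 0.20 to 1.43. Of 7 green tissue markers 4 had one, with log2 differences from -0.92 to -0.12. Of these 7 markers with a named probe set, 0 passed in limma over all probe sets, where 0.255% of all probe sets did. An unadjusted limma p under 0.05 was found for 4 of them, and for 23.4% of all probe sets. The dividing-cell list, with a named probe set for 1 of 11, had AUR1, a mitotic kinase gene, at -0.079 (SE 0.16) with overlapping genotypes. Of the 7 seed and embryo markers 0 had a named probe set. Listed genes without one, markers included, may still lie among the probe sets that the annotation used here did not name. The part of any of these in the EMB2786 value was not tested. In whole aerial parts, fewer cells of a type and less transcript per cell cannot be told apart. Since values are centred per probe set, levels can be compared between genes only by the approximate brightness classes. By these, the 4 green tissue markers with a named probe set and the root marker PYK10 were bright. The root markers EXPA7 and EXPA18, and AUR1, fell between the bright and dim classes. Without detection calls, the labelled tissue was not checked further by marker level.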

How the data were processed

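Affymetrix signals were made with MAS5, per the submitters' processing notes; no source used here gives the version, scaling or later steps. The deposited values are log2 signals: in every one of 22746 rows the middle pair of values summed to 0 within 2e-06, so each value is relative to its probe set's median over the 4 arrays. The base 2 is not stated and was taken from rounding steps; folds rest on it. No background values or detection calls were used, and the number of arrays limits the precision. Of the probe sets, 13513 had 1 gene, 503 several, and 8730 were not listed in the annotation used here; 13436 matched RefSeq (assembly TAIR10.1), used for names and neighbours.

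Each probe set was fitted on genotype with lmFit and tested with eBayes, two-sided (limma 3.58.1, R 4.3.3), with Benjamini-Hochberg adjustment over all probe sets and a threshold of 0.05. The fit was run on simulated data with known changes and independent normal noise. That simulation held no array effects and no centring, so it does not check the fit against these. Arrays were grouped by title. Members and lists were chosen with earlier results of these data known. The naming rule took all members, ALN, and lists by symbol or locus; GR and LIS were added as just outside the symbol rule. Alternatives were a replicate block, median centring, a robust prior, priors within brightness classes, leaving out the dim class, a threshold of 0.1, plain probe sets only, and each array left out. Brightness was read from the second finest rounding step of a row's 4 values: bright for signals of at least 256, dim below 16, approximately.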

Additional observations from a re-analysis of the deposited data

How the results depend on the processing

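EMB2786 did not pass in limma under any of 10 alternatives or at a threshold of 0.1, with adjusted p from 0.684 to 0.958. Its log2 difference ran from -0.15 to 0.20 when arrays were left out in turn, below 0 without aln-1 replicate 1 (-0.029) and without Col-0 replicate 2 (-0.15), and was 0.022 to 0.078 in the other 6. EMB symbols with genotypes that did not overlap numbered 0 with an aln-1 array left out and 1 with a Col-0 array left out. That 1 was fixed by the array order, because both aln-1 arrays lay between the Col-0 arrays. The share over all probe sets was not computed with an array left out. GR, LIS and TTN9 kept their direction in all 10 and passed in none of them. ALN passed in limma with priors within brightness classes (adjusted p 0.0393) and without the dim class (0.0371). Over all probe sets the 58 limma calls became 0 with the replicate block (4460 at an unadjusted p under 0.05), 0 with a robust prior (5084), 596 with priors within brightness classes, 241 without the dim class, 1078 at a threshold of 0.1, and 0 to 0 with any 1 array left out (2953 to 5326 at an unadjusted p under 0.05). Fewer arrays or degrees of freedom remain with an array left out or the block. The cause was not tested for any of these changes. In the labels, same-numbered arrays share only a number. The replicate 1 minus replicate 2 differences of the genotypes had a correlation of 0.0209 over probe sets, which are not independent replicates. Whether same-numbered arrays shared a batch was not tested. The block left EMB2786 at 0.022 (SE 0.17).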
